A study of Mus musculus with 30 samples.

Results

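The genes described are 5 receptors of the tumour necrosis factor (TNF) receptor family: Tnfrsf4 (OX40), Tnfrsf18 (GITR), Tnfrsf1b (TNFR2), Tnfrsf9 (4-1BB) and Fas. They were taken as every probe set whose only gene symbol in the array annotation was one of these names, which gave 7 of the 12488 probe sets and 5 of 8252 genes. Tnfrsf4, Tnfrsf18 and Tnfrsf1b had 1 probe set each, and Tnfrsf9 had 103509_at and 97683_at. Fas had 102921_s_at and an Affymetrix control probe set, AFFX-MurFAS_at, which is given as values without a test, so 6 of the 7 probe sets entered the tests.

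These receptors sit on the surface of T cells and bind trimeric ligands of the TNF family, most of them carried by antigen-presenting cells. OX40, GITR, TNFR2 and 4-1BB have no death domain: they recruit TRAF adaptor proteins, feed the NF-kB and MAP kinase pathways and act as costimulators of T cells. Fas carries a death domain and can start apoptosis through FADD and caspase-8. OX40, GITR and TNFR2 are well known on mouse regulatory T cells, and 4-1BB is best known as a receptor induced on activated T cells.

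The cells were CD4+ T cells of NOD mice carrying the BDC2.5 T cell receptor transgene, which gives most of their T cells 1 specificity for an islet antigen, and each sample was read on 1 Affymetrix MG-U74Av2 array. In pancreas set 1, mice had received rat IgG, and 3 arrays held Treg cells (CD4+CD25+CD69-) and 5 held Teff cells (CD4+CD25lo/-CD69+/-) of the pancreas; no age is used for this set. In pancreas set 2, 3 arrays held Treg cells (CD4+CD25+) and 3 held Teff cells (CD4+CD25-) from mice of 26 days given anti-ICOS, an antibody to a costimulatory receptor, and 2 held IgG Treg cells (CD4+CD25+CD69-) from mice of 4 weeks and of 26 days. In the lymph node set, from mice of 4 weeks with no treatment named, mesenteric nodes gave 5 CD4+CD25+ and 3 CD4+CD25- arrays, and peripheral nodes gave 3 CD4+CD25+ and 3 CD4+CD25- arrays. The questions were how the receptors differ between regulatory and effector or CD25- cells at each site, and whether anti-ICOS, node site or tissue moves them. The labels name no pooling and do not tie replicates to separate animals. The p-values therefore cover the spread among these arrays only, which may be technical. In such bulk samples, fewer cells that express a gene and less of its RNA per cell cannot be told apart.

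The array labelled anti-ICOS Treg replicate 3 had no Treg profile: Il2ra, the CD25 gene, was at 3.88 and Ctla4, an inhibitory receptor of Treg cells, at 6.02, against 3.68 to 3.82 and 5.81 to 6.26 in the anti-ICOS Teff arrays (log2 intensity). IgG Treg replicate 2 of set 2 is also IgG Treg replicate 3 of set 1; the 2 records of it correlated at r = 0.997 (a value across genes, which are no replicates), and neither correlated above 0.988 with another pancreatic array. All peripheral node arrays carried a mesenteric tissue entry, and the source name of mesenteric CD25+ replicate 2 reads CD25-, though its Il2ra was at 5.50, inside the range of the other 4 CD25+ arrays (5.34 to 6.24); titles were followed. The sort itself used CD25, so Il2ra is no finding, and Foxp3 was not measured. All levels given are log2 of the deposited intensity, and levels of different probe sets, or of different sets of arrays, are not set against each other.

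In the IgG-treated pancreas, 3 of the 5 receptors were higher in Treg cells than in Teff cells. Tnfrsf4, the receptor for OX40 ligand, had 9.99, 10.21 and 10.10 in the Treg arrays, against 7.25, 6.99, 6.91, 7.31 and 6.75 in the Teff arrays. Tnfrsf18, the receptor for GITR ligand, had 9.58, 9.55 and 9.35 in Treg cells, against 7.96, 7.91, 7.77, 8.15 and 7.81 in Teff cells. Tnfrsf1b, the second receptor for TNF, had 8.87, 8.31 and 8.56 in Treg cells, against 6.48, 6.59, 6.82, 6.73 and 6.59 in Teff cells. For all 3 genes every Treg array lay above every Teff array, with a gap wider than the spread inside either group.

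In means, Tnfrsf4 stood at 10.10 ± 0.11 in Treg cells (SD, n = 3) and at 7.04 ± 0.23 in Teff cells (SD, n = 5). It was higher in Treg cells by 3.06 on the log2 scale (SE 0.13, limma adjusted p = 1.48e-06) or 8.34-fold. It was the 8th largest positive difference among 12422 probe sets. Tnfrsf1b averaged 8.58 ± 0.29 in Treg and 6.64 ± 0.13 in Teff cells, a difference of 1.94 (SE 0.13, limma adjusted p = 3.07e-05) or 3.83-fold. Tnfrsf18 averaged 9.49 ± 0.13 in Treg and 7.92 ± 0.15 in Teff cells, a difference of 1.57 (SE 0.11, limma adjusted p = 3.07e-05) or 2.97-fold. So 3 of 6 member probe sets passed the test, where 6.69% of all probe sets did in either direction and 3.93% upward.

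**Figure D1:**
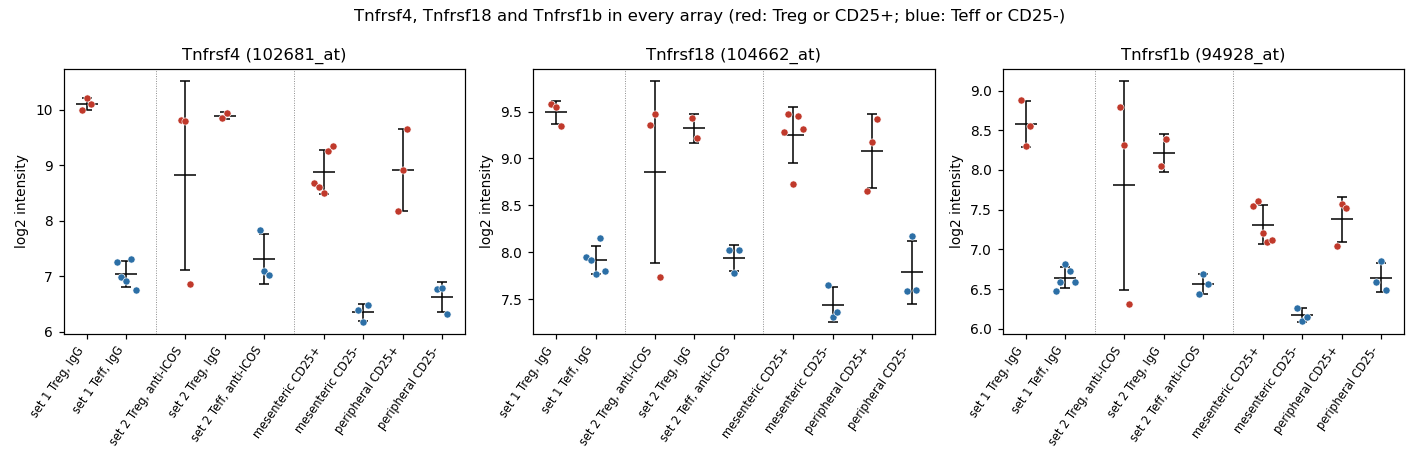
Log2 intensity (vertical axes) of the single probe sets of Tnfrsf4, Tnfrsf18 and Tnfrsf1b in all 30 array records, by group along the horizontal axis; points are arrays, the wide tick is the group mean and the bar is 1 SD, and dotted lines part the 3 sets, whose levels are not comparable. Treg and CD25+ points (red) lie above Teff and CD25- points (blue) in each set, except for the 1 anti-ICOS Treg array at 6.85, 7.74 and 6.31.

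The other receptors did not pass the test in this comparison. Tnfrsf9 on 103509_at had 5.45, 6.36 and 6.55 in Treg cells, against 5.53, 5.26, 5.33, 5.83 and 5.75 in Teff cells, a difference of 0.58 (SE 0.23, limma adjusted p = 0.191). One Treg array lay among the Teff arrays and the other 2 above them; without that array, Treg replicate 1, the difference was 0.92 (limma adjusted p = 0.0116). The second Tnfrsf9 probe set, 97683_at, showed no such split, with 4.69 ± 0.20 in Treg and 4.71 ± 0.06 in Teff cells (difference -0.02, limma adjusted p = 0.951). It was dim in set 1, at intensities of 22.3 to 29.3 where the array medians were 32.5 to 34.5. Little can thus be drawn from its lack of a difference.

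Fas on 102921_s_at had 4.81, 4.63 and 4.95 in Treg cells, against 4.47, 4.48, 4.44, 4.62 and 4.67 in Teff cells, a difference of 0.26 (SE 0.10, limma adjusted p = 0.173). The groups overlapped at their edge. This probe set was dim, at intensities of 21.8 to 30.8 where the array medians were 32.5 to 34.5. On the control probe set Fas averaged 5.28 ± 0.03 in Treg and 5.10 ± 0.16 in Teff cells, and the highest Teff array (5.26) lay inside the Treg range of 5.24 to 5.30.

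Arrays with near numbers in the labels were taken as runs, a grouping whose meaning the labels do not give, and set 1 had Treg and Teff arrays in 3 of them. Within these runs Tnfrsf4 differed by 2.87, 3.30 and 3.08, Tnfrsf18 by 1.64, 1.78 and 1.37, and Tnfrsf1b by 2.34, 1.48 and 1.90. Each of the 9 within-run values was thus positive and of the size of the pooled one, though every run held a single Treg array. Tnfrsf9 on 103509_at differed by 0.06, 1.04 and 0.76 in the same runs, so its lowest value came from the run of Treg replicate 1.

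RNA quality and some markers of other cell types moved with the sort in set 1. The log2 3'/5' ratio of the actin control, which is larger in more degraded or shorter RNA, averaged 3.75 in Treg and 2.65 in Teff arrays (two-sided p = 0.0357 by an exact permutation test of 56 splits, and 0.175 adjusted over 7 such tests). With this ratio as a covariate 86 probe sets passed in place of 831, and the 3 receptors were still among them: Tnfrsf4 differed by 2.96 (limma adjusted p = 0.000533), Tnfrsf1b by 2.04 (0.00479) and Tnfrsf18 by 1.51 (0.0073). Of 7 measured B cell markers, Ighm, Cd79b and Blk passed as higher in Treg cells. The summed intensity of the 7 was 675 to 859 in Treg and 461 to 535 in Teff arrays. Ighm was the brightest of them (log2 8.935 in Treg and 8.193 in Teff cells) and weighs most in this linear sum. The median log2 difference of the 7 was 0.167. Cd79a (6.283 and 6.132) and Blnk (5.112 and 4.945) did not pass. Ms4a1 (5.321 and 5.342) and Cd22 (4.798 and 4.856) were no higher in Treg cells. Of 7 measured T cell identity genes, Cd2 and Cd5 passed as higher. The summed intensity of the 7 was 3670 to 3760 in Treg and 2100 to 3040 in Teff arrays. Cd2 was the brightest of them in Treg cells (log2 10.427 in Treg and 9.066 in Teff cells). The median log2 difference of the 7 was 0.073. Cd3e (8.669 and 8.596), Cd3g (9.504 and 9.315) and Cd247 (6.591 and 6.589) did not pass. Cd4 (6.847 and 7.159) and Cd3d (8.65 and 8.748) were lower in Treg cells and did not pass. The summed intensity of 2 erythroid markers was 2310 to 2890 in Treg and 471 to 2230 in Teff arrays, and neither marker passed. Klrd1, a receptor of NK and CD8 cells, averaged 4.31 in Treg and 5.46 in Teff cells, with overlap, and did not pass. It was 1 of 5 measured CD8 and NK cell markers, none of which passed, with a median log2 difference of 0.063. Their sums overlapped, at 134 to 175 in Treg and 154 to 172 in Teff arrays. The part of these marker levels in the receptor differences was not tested.

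The start regions of the receptor genes are shown because Tnfrsf4 and Tnfrsf18 are direct neighbours on chromosome 4, with no protein-coding gene between them, and moved together, while Tnfrsf9, on the same chromosome, did so less clearly. Each is 300 bases of the gene's strand, 5′ to 3′, with 250 before the annotated start, from RefSeq (build GRCm38.p6). Capitals mark matches to the letters TTCNNNGAA (STAT type), TGANTCA (AP-1 type), TGTTTNC (forkhead type) and the NF-kB motif, searched on both strands.
Tnfrsf4, chr4:156013445-156013744, plus strand: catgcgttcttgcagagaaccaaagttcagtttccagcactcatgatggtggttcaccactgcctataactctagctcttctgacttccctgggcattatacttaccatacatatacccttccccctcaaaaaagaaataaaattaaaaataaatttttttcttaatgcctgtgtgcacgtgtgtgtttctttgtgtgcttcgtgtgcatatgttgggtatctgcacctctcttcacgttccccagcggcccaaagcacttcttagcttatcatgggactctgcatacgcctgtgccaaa
Tnfrsf18, chr4:156026072-156026371, plus strand: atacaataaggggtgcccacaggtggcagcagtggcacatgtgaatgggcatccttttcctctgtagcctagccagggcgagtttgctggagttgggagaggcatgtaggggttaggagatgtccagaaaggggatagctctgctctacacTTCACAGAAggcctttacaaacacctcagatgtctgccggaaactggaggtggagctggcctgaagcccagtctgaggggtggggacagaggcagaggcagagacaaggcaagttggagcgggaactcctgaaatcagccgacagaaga
Tnfrsf1b, chr4:145246821-145247120, minus strand: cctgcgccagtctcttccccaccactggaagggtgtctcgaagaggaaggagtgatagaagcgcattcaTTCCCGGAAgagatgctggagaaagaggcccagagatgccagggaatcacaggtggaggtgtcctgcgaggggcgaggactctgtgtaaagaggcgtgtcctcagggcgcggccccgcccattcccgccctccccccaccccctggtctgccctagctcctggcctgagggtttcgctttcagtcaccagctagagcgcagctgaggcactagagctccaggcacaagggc
Tnfrsf9, second start, chr4:150927749-150928048, plus strand: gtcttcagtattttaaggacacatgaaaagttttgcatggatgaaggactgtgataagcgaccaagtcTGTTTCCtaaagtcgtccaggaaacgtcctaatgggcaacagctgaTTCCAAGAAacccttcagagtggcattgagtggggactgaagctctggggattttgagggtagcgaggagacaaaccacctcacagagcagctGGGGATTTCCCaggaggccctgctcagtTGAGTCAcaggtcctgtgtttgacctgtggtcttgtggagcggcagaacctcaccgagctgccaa
The Tnfrsf4 window held none of the 4 marked motifs, and neither did the window of the first Tnfrsf9 start, which is not printed. The Tnfrsf18 and Tnfrsf1b windows held 1 STAT-type match each, beginning at positions -99 and -181 from the start. The second Tnfrsf9 start had all 4 kinds, with overlapping NF-kB matches at positions -43 and -42; its forkhead and NF-kB matches overlapped the short NFAT-type motif GGAAA, which was searched too and is not marked. Over all 6 member windows (Tnfrsf9 has 2 starts, and Fas, on chromosome 19, has 1) the STAT type was found in 4, AP-1 in 2, forkhead in 2, NF-kB in 1 and NFAT in 5. The same motifs occurred in 8.3%, 7.8%, 20.5%, 8.5% and 61.3% of 32851 windows of this length. Matches of letters are a description of the windows and do not show binding.

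The nearest measured neighbours of all 5 genes were looked at for the same reason. The nearest measured genes on either side of the Tnfrsf4 and Tnfrsf18 pair, Sdf4 (difference -0.07, limma adjusted p = 0.746) and Agrn (-0.26, 0.253), did not pass in the IgG-treated pancreas, nor in the mesenteric nodes (0.19 and -0.41, adjusted p = 0.364 and 0.0683) or the peripheral nodes (0.17 and 0.03, 0.513 and 0.938). Tnfrsf1b lies directly beside Tnfrsf8 (CD30), a receptor of activated lymphocytes, which was also higher in pancreatic Treg cells, by 0.41 (SE 0.08, limma adjusted p = 0.0149). Tnfrsf8 was not called without Teff replicate 5 (adjusted p = 0.0541) or with the actin ratio as covariate (0.189), and it did not pass in the mesenteric (0.18, 0.262) or peripheral nodes (-0.09, 0.666). On the other side of Tnfrsf1b, Dhrs3, a retinal reductase gene, passed in mesenteric nodes (0.88, limma adjusted p = 0.0151) and not in the pancreas (0.38, 0.138) or peripheral nodes (0.25, 0.614). Near Tnfrsf9, Park7 (0.99, limma adjusted p = 0.0461) and Errfi1 (0.51, 0.00978) passed in mesenteric nodes, and Vamp3 (0.43, 0.0417) in the pancreas. Near Fas, Atad1 passed as lower in the pancreas (-1.14, limma adjusted p = 0.00136) and in peripheral nodes (-1.03, 0.0475). In order of protein-coding genes, Vamp3 lies 4 places after Tnfrsf9 and Atad1 14 places before Fas. The genes directly beside Tnfrsf9, Park7 and Per3, did not pass in the pancreas (limma adjusted p = 0.469 and 0.961). Those directly beside Fas, Acta2 and Ch25h, did not pass there either (0.667 and 0.405), nor did Tnfrsf9 and Fas themselves.

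In mice given anti-ICOS, 2 of the 3 Treg arrays showed the same receptors at high levels and 1 did not. Tnfrsf4 had 9.81, 9.80 and 6.85 in Treg cells, against 7.83, 7.08 and 7.02 in Teff cells. Tnfrsf18 had 9.36, 9.48 and 7.74 in Treg cells, against 8.03, 7.79 and 8.02 in Teff cells. Tnfrsf1b had 8.80, 8.32 and 6.31 in Treg cells, against 6.44, 6.69 and 6.57 in Teff cells. For each of the 3 genes the array labelled Treg replicate 3 lay below every Teff array, and the other 2 Treg arrays above all of them.

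Over all arrays Tnfrsf4 differed by 1.51 (SE 0.72), Tnfrsf18 by 0.91 (SE 0.41) and Tnfrsf1b by 1.24 (SE 0.55), each with limma adjusted p = 1. None of the 6 member probe sets passed, and 0% of all probe sets did (209 had an unadjusted p under 0.05). Without Treg replicate 3, the differences were 2.49 for Tnfrsf4 (limma adjusted p = 0.0376), 1.47 for Tnfrsf18 (0.0393) and 1.99 for Tnfrsf1b (0.0376), and these were 3 of 12 probe sets called in all. With array-number run as a block they were 2.54, 1.45 and 2.03 (limma adjusted p = 0.049, 0.049 and 0.0376); no Teff array lies in the run of Treg replicate 3. The log2 actin ratio was 2.45 to 4.06 in anti-ICOS Treg and 2.16 to 2.41 in anti-ICOS Teff arrays (two-sided p = 0.1 by an exact permutation test, the smallest that 20 splits allow). The B cell marker sum was 481, 815 and 899 in Treg arrays, in order of size, and 440 to 510 in Teff arrays. Ighm, the brightest of these markers, differed by 0.807. The others ranged from -0.132 (Ms4a1) to 0.24 (Cd79b). The median of the list was 0.084, and none of its markers passed. With the actin ratio as covariate, the differences over all arrays were 1.10 for Tnfrsf4, 0.67 for Tnfrsf18 and 0.90 for Tnfrsf1b (limma adjusted p = 0.802 for each). The part of these markers in the receptor values was not tested.

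Tnfrsf9 on 103509_at had 5.44, 6.74 and 5.52 in anti-ICOS Treg cells, against 5.13, 5.45 and 5.68 in anti-ICOS Teff cells (difference 0.48, SE 0.43, limma adjusted p = 1). One Treg array was high and the other 2 lay inside the Teff range. Its second probe set differed by 0.09. Fas had 3.75, 4.48 and 4.41 in Treg cells, against 4.57, 4.42 and 4.36 in Teff cells (-0.23, SE 0.30, limma adjusted p = 1), where 1 Treg array stood low. The control probe set of Fas averaged 4.85 ± 0.38 in anti-ICOS Treg and 5.16 ± 0.25 in anti-ICOS Teff cells (n = 3 each).

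No receptor differed detectably between anti-ICOS and IgG treatment in Treg cells. The IgG Treg arrays of set 2 had Tnfrsf4 at 9.85 and 9.93, Tnfrsf18 at 9.43 and 9.21, and Tnfrsf1b at 8.05 and 8.39. Anti-ICOS replicates 1 and 2, given above, lay just below the IgG arrays for Tnfrsf4 and inside or just above their range for Tnfrsf18, and replicate 3 lay far below both IgG arrays for all 3 genes. Over all arrays anti-ICOS minus IgG was -1.07 for Tnfrsf4 (SE 0.81, 95% interval -2.93 to 0.78), -0.47 for Tnfrsf18 (-1.53 to 0.59) and -0.41 for Tnfrsf1b (-1.82 to 1.00), with limma adjusted p from 0.893 to 0.907. None of 6 passed, against 0% of all probe sets (425 unadjusted). Without replicate 3 the differences were -0.09, 0.09 and 0.34, so the sign of the last 2 changed.

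Tnfrsf9 on 103509_at was at 5.04 and 6.38 in the IgG Treg arrays, and Fas on 102921_s_at at 3.47 and 4.57; the differences were 0.19 for each, and 0.03 for 97683_at (limma adjusted p from 0.916 to 0.978). Both genes varied as much between the 2 IgG arrays as between the anti-ICOS arrays. The lower value of each came from IgG replicate 1, in which the summed intensity of 9 macrophage and dendritic cell markers was 950 and that of 2 erythroid markers 10200, against 224 and 2920 in IgG replicate 2; their part in these values was not tested. The gates differed as well: CD69- was part of the IgG Treg sort and is not named for the anti-ICOS Treg sort.

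In Teff cells, anti-ICOS and IgG arrays had to be compared across sets, so treatment and set cannot be told apart. After joint quantile normalization Tnfrsf4 averaged 7.36 ± 0.55 (SD, n = 3) with anti-ICOS and 6.99 ± 0.24 (n = 5) with IgG, a difference of 0.37 (95% interval -0.70 to 1.43). The other 5 probe sets differed by 0.01 to 0.21, all with limma adjusted p = 0.999, and 0% of all probe sets passed (512 unadjusted). The 2 groups of Fas values on 102921_s_at did not overlap in this fit (4.60 ± 0.06 with anti-ICOS and 4.40 ± 0.12 with IgG). Without the joint normalization its difference was -0.09, so no direction is drawn from it.

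Whether the Treg to Teff contrast differed between anti-ICOS and IgG arrays was tested in the joint pancreatic fit. All IgG Teff arrays came from set 1 and all anti-ICOS arrays from set 2, while IgG Treg arrays came from both. The gates differed with treatment as well. Treatment, set and gate therefore cannot be told apart in this test. The contrast with anti-ICOS minus that with IgG was -1.64 for Tnfrsf4 (SE 0.72, unadjusted p = 0.0378 and adjusted p = 1 by limma), -0.79 for Tnfrsf18 (SE 0.43) and -0.73 for Tnfrsf1b (SE 0.54), and none passed, as for 0% of all probe sets. Without the array labelled anti-ICOS Treg replicate 3 these differences were -0.69, -0.25 and -0.01. Tnfrsf9 differed by 0.06 and 0.01 on its probe sets and Fas by -0.20.

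**Figure D2:**
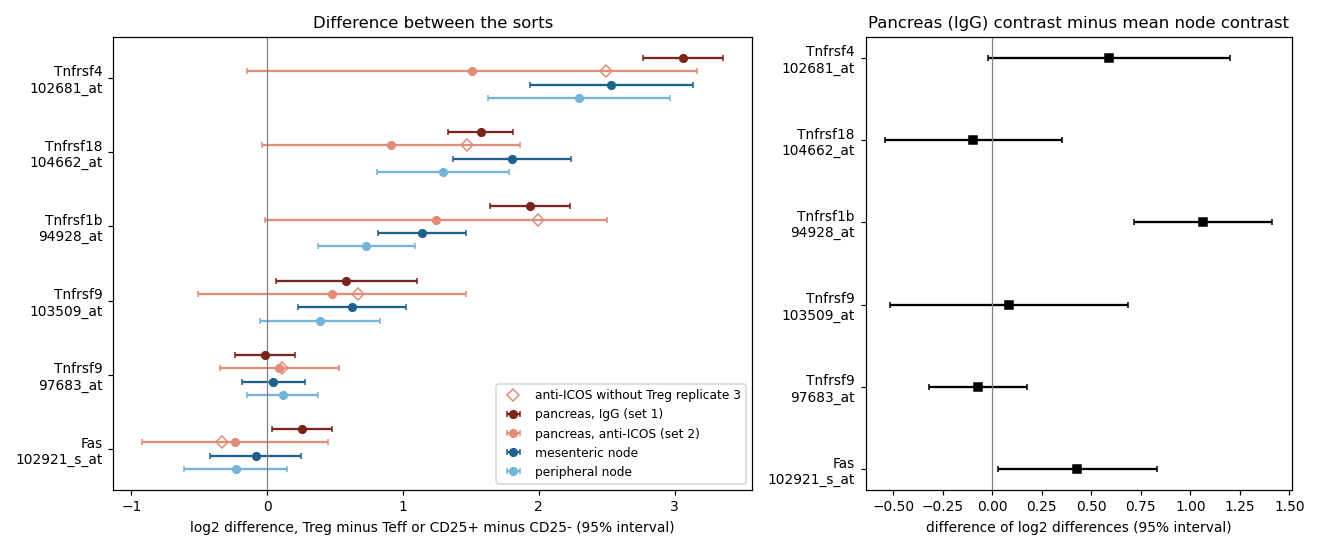
Left, log2 difference (horizontal axis) of each tested probe set between Treg and Teff or CD25+ and CD25- cells in 4 settings, as points with 95% intervals; open diamonds give the anti-ICOS value without Treg replicate 3. Right, the pancreas IgG contrast minus the mean node contrast, where Tnfrsf1b (1.06) is the 1 probe set that passed after adjustment.

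The lymph nodes gave the same contrast with a plain CD25 sort, in arrays separate from the pancreatic ones. In mesenteric nodes Tnfrsf4 had 8.68, 8.61, 8.50, 9.26 and 9.34 in CD25+ cells, against 6.38, 6.17 and 6.48 in CD25- cells. Tnfrsf18 had 9.28, 9.47, 8.73, 9.45 and 9.31 in CD25+ cells, against 7.65, 7.31 and 7.37 in CD25- cells. Tnfrsf1b had 7.55, 7.60, 7.21, 7.09 and 7.11 in CD25+ cells, against 6.27, 6.10 and 6.15 in CD25- cells. None of these groups overlapped, although CD25+ replicate 3 stood low for Tnfrsf18.

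The mesenteric differences were 2.53 for Tnfrsf4 (SE 0.28, limma adjusted p = 0.000127, 5.79-fold), 1.81 for Tnfrsf18 (SE 0.20, 0.000134, 3.49-fold) and 1.14 for Tnfrsf1b (SE 0.15, 0.000366, 2.2-fold). Tnfrsf9 on 103509_at had 3.48, 3.86, 3.97, 4.15 and 4.04 in CD25+ cells, against 2.99, 3.43 and 3.40 in CD25- cells. It passed too, with 0.62 (SE 0.18, limma adjusted p = 0.0405), while its second probe set differed by 0.05 (0.86). That call was lost in 11 of 20 alternatives, among them 9 of the 14 that dropped a single array, where the difference was 0.48 to 0.70 and adjusted p reached 0.202. The probe set was dim in these nodes, at intensities of 7.96 to 17.7 where the array medians were 25.3 to 26.9, and with 16 added before log2 the difference was 0.27 (limma adjusted p = 0.0781). With these, 4 of 6 member probe sets were higher in CD25+ cells, against 12.2% of all probe sets called and 4.66% called upward. Fas differed by -0.08 (SE 0.16, adjusted p = 0.818), and the control probe set averaged 4.27 ± 0.15 in CD25+ and 4.26 ± 0.13 in CD25- cells.

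In peripheral nodes the same 3 receptors passed. Tnfrsf4 had 8.17, 8.91 and 9.65 in CD25+ cells, against 6.76, 6.79 and 6.31 in CD25- cells, a difference of 2.29 (SE 0.31, limma adjusted p = 0.000619). Tnfrsf18 had 8.65, 9.18 and 9.42 in CD25+ cells, against 7.59, 8.18 and 7.60 in CD25- cells, a difference of 1.29 (SE 0.23, 0.0032 by limma). Tnfrsf1b had 7.05, 7.57 and 7.52 in CD25+ cells, against 6.59, 6.85 and 6.49 in CD25- cells, a difference of 0.73 (SE 0.17, 0.0159 by limma). The CD25+ and CD25- arrays did not overlap for any of the 3.

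The Tnfrsf1b call in peripheral nodes was lost without CD25+ replicate 2 or 3 or CD25- replicate 1 or 3, where the difference was 0.64 to 0.71 and limma's adjusted p 0.0516 to 0.0804. Tnfrsf9 had 3.71, 4.16 and 4.44 in CD25+ cells, against 3.43, 3.81 and 3.89 in CD25- cells, a difference of 0.39 (SE 0.21, limma adjusted p = 0.312). Its second probe set differed by 0.11 (adjusted p = 0.656), and Fas by -0.23 (0.507), with 3.65, 3.52 and 3.81 among CD25+ arrays spanned by the CD25- range of 3.42 to 4.15. Fas was dim here as well, at intensities of 10.7 to 17.7 where the array medians were 25.3 to 27.1. In all, 3 of 6 probe sets were higher, against 7.69% of all probe sets called and 1.8% called upward. The control probe set of Fas averaged 4.31 ± 0.16 in CD25+ and 4.41 ± 0.03 in CD25- cells.

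The node arrays also fell into 2 runs that each held every group. Within them Tnfrsf4 differed between CD25+ and CD25- cells by 2.37 and 2.56 in mesenteric and 2.01 and 2.87 in peripheral nodes. Tnfrsf18 differed by 1.89 and 1.80, and by 1.32 and 1.24, and Tnfrsf1b by 1.39 and 0.99, and by 0.77 and 0.66. Each within-run value was positive. In mesenteric nodes Cd79b and Blk passed as higher in CD25+ cells among 7 B cell markers, with sums of 549 to 693 in CD25+ and 474 to 537 in CD25- arrays, and in peripheral nodes none of the 7 passed (410 to 888 and 394 to 713). Klrd1 passed as lower in CD25+ cells at both sites, and the sum of 5 CD8 and NK cell markers was 80 to 89.5 in CD25+ and 103 to 106 in CD25- arrays of mesenteric nodes, and 83.1 to 91.3 in CD25+ and 96.1 to 112 in CD25- arrays of peripheral nodes. The median log2 difference of the B cell markers was 0.062 in mesenteric and 0.313 in peripheral nodes. That of the CD8 and NK cell markers was -0.11 and -0.005. Among other markers, 2 of 7 T cell identity genes passed as higher in mesenteric and 1 as lower in peripheral CD25+ cells. The log2 actin ratio averaged 2.85 in CD25+ and 2.63 in CD25- cells of mesenteric nodes, and 3.02 in CD25+ and 2.54 in CD25- cells of peripheral nodes (two-sided p = 0.0714 by an exact permutation test of 56 splits and p = 0.1, the smallest that 20 splits allow, each 0.175 after adjustment). The part of these levels in the receptor differences was not tested.

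**Figure D3:**
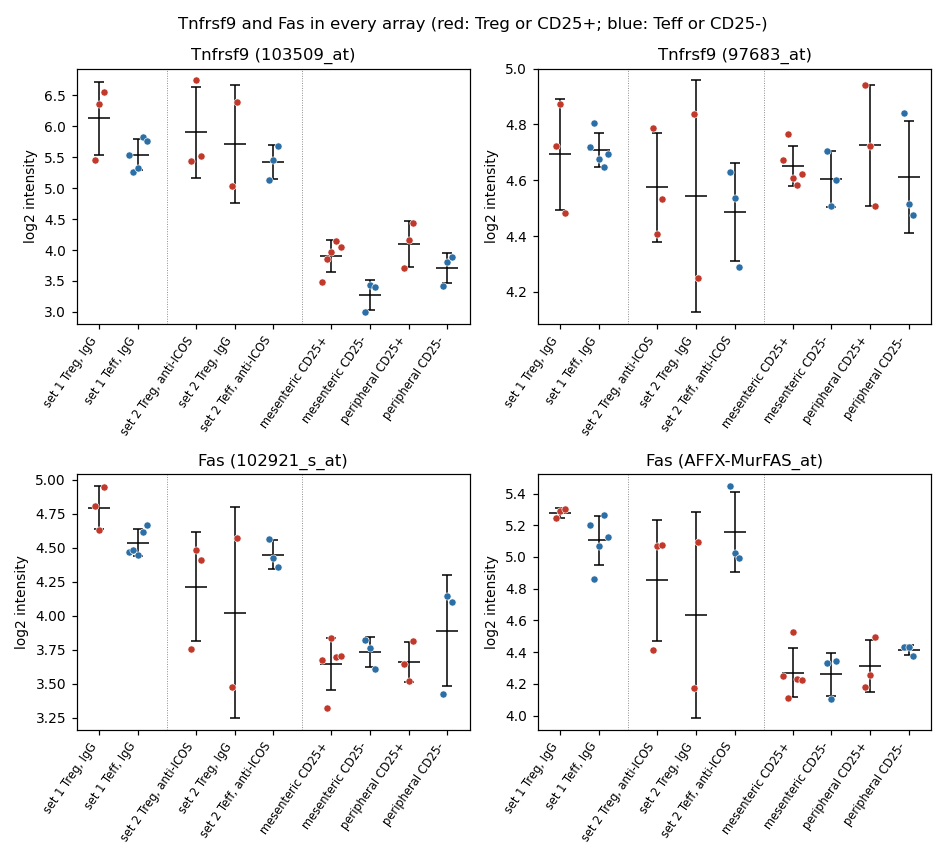
Log2 intensity (vertical axes) of both Tnfrsf9 and both Fas probe sets in all 30 array records, by group; points are arrays, wide ticks means, bars 1 SD, and dotted lines part sets whose levels are not comparable. Treg or CD25+ (red) and Teff or CD25- (blue) points overlap in most groups, except Tnfrsf9 on 103509_at in mesenteric nodes.

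Within the node set the order of levels was CD25+ above CD25- for Tnfrsf4, Tnfrsf18 and Tnfrsf1b at both sites. For Tnfrsf9 on 103509_at it was so in mesenteric nodes, while in peripheral nodes its CD25+ and CD25- arrays overlapped. For Tnfrsf4 the means were 8.91 ± 0.74 (peripheral CD25+), 8.88 ± 0.39 (mesenteric CD25+), 6.62 ± 0.27 (peripheral CD25-) and 6.34 ± 0.16 (mesenteric CD25-). The step between the CD25+ and the CD25- groups was larger than the spread, and the steps between sites were not.

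Site made little difference that could be detected. Mesenteric minus peripheral CD25+ cells differed by -0.20 to 0.17 over the 6 probe sets (limma adjusted p from 0.972 to 0.998), none was called, and 0.0725% of all probe sets were. The 95% interval was -0.63 to 0.57 for Tnfrsf4, -0.27 to 0.60 for Tnfrsf18 and -0.39 to 0.26 for Tnfrsf1b. In CD25- cells Tnfrsf1b was 6.17 ± 0.08 in mesenteric and 6.65 ± 0.19 in peripheral nodes (n = 3 each), with no overlap of the arrays. This difference of -0.47 (SE 0.17) did not pass (limma, unadjusted p = 0.0136, adjusted p = 0.735), and the other 5 probe sets ranged from -0.43 to -0.01, against 0.451% of all probe sets called. The CD25 contrasts of the 2 sites were also compared directly: mesenteric minus peripheral was 0.24 for Tnfrsf4, 0.51 for Tnfrsf18 and 0.41 for Tnfrsf1b (SE 0.42, 0.30 and 0.22), none passed, and 0.00805% of all probe sets did.

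Among the receptors, Tnfrsf1b was the 1 whose contrast differed between pancreas and nodes. Its difference between sorts was 1.94 in the IgG-treated pancreas, against 1.14 in mesenteric and 0.73 in peripheral nodes. In a joint fit of these 22 arrays, in which a constant offset of a set cancels, the pancreatic contrast exceeded the mean node contrast by 1.06 (SE 0.17, 95% interval 0.71 to 1.41, limma adjusted p = 0.00255). That was 1 of 6 member probe sets, where 2.08% of all probe sets passed.

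Each of 30 alternatives kept this Tnfrsf1b call, with values from 0.91 to 1.22. It held against mesenteric nodes alone (0.91, limma adjusted p = 0.0182), against peripheral nodes alone (1.22, 0.0107) and with the actin ratio as covariate (1.17, 0.00896). For Tnfrsf4 the same quantity was 0.59 (SE 0.29, 95% interval -0.02 to 1.20, limma adjusted p = 0.37), and for Tnfrsf18 it was -0.10 (SE 0.21, -0.54 to 0.35, 0.883). Tnfrsf9 differed by 0.09 and -0.07 on its probe sets, and Fas by 0.43 (SE 0.19, unadjusted p = 0.0369, limma adjusted p = 0.311). Tissue, set of arrays, IgG treatment and the CD69 gate change together here and cannot be told apart.

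Other parts of the pathway were taken from lists of receptors, ligands, adaptors and NF-kB genes, with 47 measured members. Each list gene was read on its probe set with the highest mean over all arrays, and its other probe sets are not given. The shares over all probe sets also count dimmer and repeated ones, so the shares set beside each other are not strictly alike. In the IgG-treated pancreas 2 of the 47 passed (4.26%), a share no higher than the 6.69% of all probe sets. There 1 of 10 other measured TNF receptors passed, the Tnfrsf8 described above, and the list's median difference was 0.10, against 0.03 over all probe sets. Of 12 ligands 1 passed: Lta, the gene for lymphotoxin alpha, which can bind TNFR2, was 7.71 in Treg and 6.71 in Teff cells, a difference of 1.00 (SE 0.16, limma adjusted p = 0.00496). With the actin ratio as covariate Lta differed by 0.68 and was not called (adjusted p = 0.328). No adaptor of 15 and no NF-kB gene of 10 passed, and their medians were -0.003 and 0.22. Near the threshold were Nfkb2, which encodes the precursor of the p52 subunit (0.61, adjusted p = 0.0505), and Traf1, an adaptor of TNFR2 and 4-1BB (0.75, 0.0928).

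Apart from Lta, the measured ligands of the described receptors did not pass in this comparison. Tnf, the ligand of TNFR2, differed by -0.26 (limma adjusted p = 0.135), Tnfsf4, the ligand of OX40, by -0.25 (0.171), Tnfsf9, the ligand of 4-1BB, by 0.16 (0.476) and Fasl, the ligand of Fas, by -0.01 (0.975). Tnfsf18, the ligand of GITR, was not measured. Lists of the anti-ICOS contrast had no called member, with medians from 0.03 to 0.07 against 0.01 over all probe sets.

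In mesenteric nodes 13 of the 47 list genes passed (27.7%), where 12.2% of all probe sets did; whether the share differs from that of other sites was not tested. Traf1 was 5.64 in CD25+ and 4.29 in CD25- cells, higher by 1.34 (SE 0.27, limma adjusted p = 0.00518), while Birc2, the ubiquitin ligase cIAP1 that TRAF proteins recruit, was lower by 0.83 (log2 difference -0.83, 0.00214). Lta was higher by 1.92 (adjusted p = 0.00128). Among NF-kB genes Nfkbia, an inhibitor that is itself an NF-kB target, was higher by 0.90 (0.00454) and Nfkb2 by 0.80 (0.00339). These 5 genes were called in every one of 20 alternatives.

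A further 8 mesenteric calls were each lost without CD25- replicate 1 and in other alternatives. They were Tnfrsf21 (0.47, lost in 6 of 19), Ltb (1.26, 6 of 20), Tnfsf10 (0.28, 12 of 19), Fasl (-0.42, 3 of 20), Traf6 (-0.79, 10 of 20), Rela (0.51, 9 of 20), Relb (0.45, 3 of 20) and Ikbkg (-0.38, 8 of 20). By list, 1 of 10 receptors, 3 of 12 ligands, 1 of 15 adaptors and 4 of 10 NF-kB genes were higher, and 0, 1, 2 and 1 lower. The medians were 0.11, 0.17, 0.09 and 0.28, against 0.04 over all probe sets.

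In peripheral nodes 2 of the 47 list genes passed (4.26%), both lower in CD25+ cells, where 7.69% of all probe sets passed and most of those were lower. Birc2 differed by -0.92 (limma adjusted p = 0.00294) and was called in all 20 alternatives. Tnfsf11, the gene for RANKL, differed by -0.88 (0.0227) and was lost in 4 of 20, each a fit without 1 peripheral array. Traf1 (0.69, 0.198), Lta (0.82, 0.181), Nfkbia (0.61, 0.0809) and Nfkb2 (0.27, 0.395) did not pass there. Whether these genes differ between sites was tested in the comparison of the contrasts, where no list gene passed.

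Between sites, CD25- cells of mesenteric nodes had lower Tnfsf11 (5.35 in mesenteric and 6.64 in peripheral nodes, difference -1.29, limma adjusted p = 0.0106, lost in 4 of 20 alternatives). They had higher Daxx, a Fas-binding protein (7.11 in mesenteric and 5.83 in peripheral nodes, 1.28, 0.00504, called in all 20 alternatives). In CD25+ cells no list gene passed between sites. In the pancreas minus node difference 1 list gene passed, Tnfsf8, the CD30 ligand (-0.40, limma adjusted p = 0.0473), and it was lost in 22 of 30 alternatives.

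**Figure D4:**
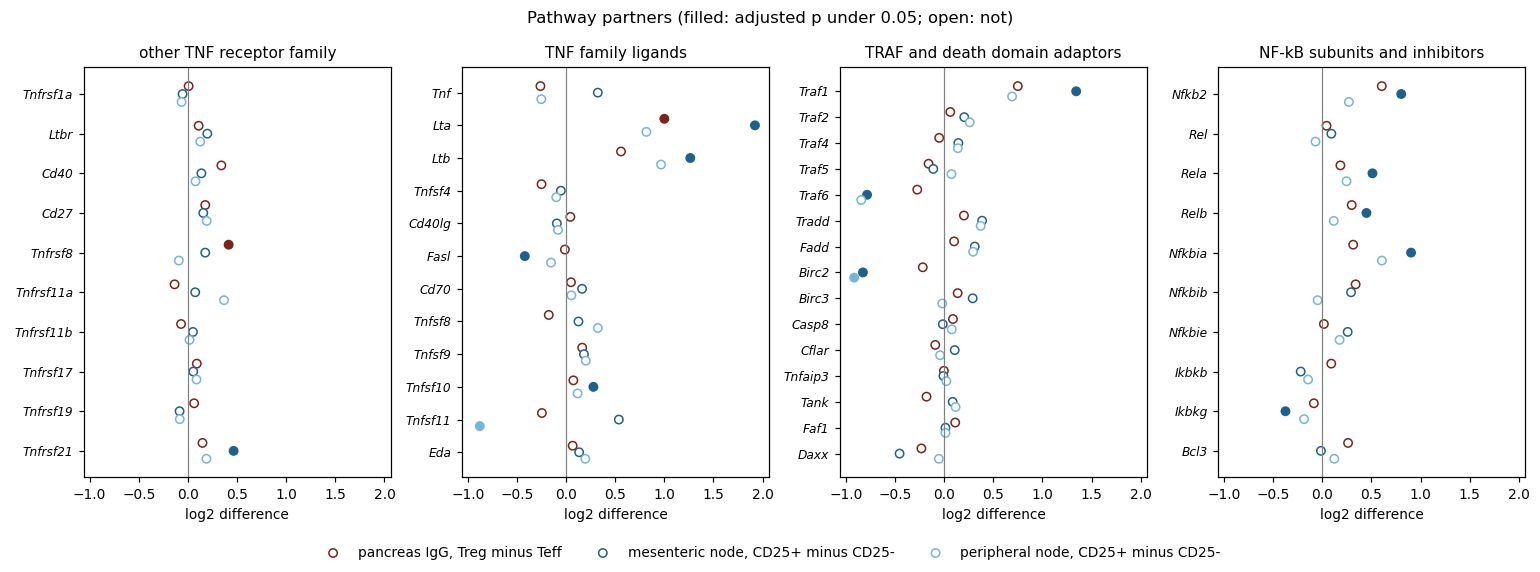
Log2 difference (horizontal axes) of each measured pathway gene, Treg minus Teff in the IgG-treated pancreas and CD25+ minus CD25- in mesenteric and peripheral nodes; filled points passed at an adjusted p under 0.05 and open points did not. Lta is filled in the pancreas (1.00) and mesenteric nodes (1.92), and Birc2 in both nodes (-0.83 and -0.92).

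Genes with the most similar patterns were found by Pearson's r over the 29 distinct arrays, each set centred on its mean. Nearest to Tnfrsf4 were Penk, the enkephalin precursor (r = 0.966), Klrg1, an inhibitory lectin receptor (0.963), and Vamp8, a vesicle fusion protein (0.961). Nearest to Tnfrsf18 were Vamp8 (0.945), Nrp1, a surface receptor of Treg cells (0.945), and Klrg1 (0.943), and nearest to Tnfrsf1b were Penk (0.948), Klrg1 (0.919) and Entpd1, the ectonucleotidase CD39 (0.912). Tnfrsf9 on 103509_at followed 2210016F16Rik (0.846), Cd83, an activation marker (0.834), and Ckap2, a spindle protein (0.816), a different group of names. Fas on 102921_s_at followed Snx10 (0.826), Mrpl18 (0.817) and Parl (0.812). The arrays share their sorts and sets, and the values are given as a description without a test. Without the array labelled anti-ICOS Treg replicate 3 these 15 values ran from 0.81 to 0.965.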

How the data were processed

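RNA of sorted CD4+ T cells was read on 30 MG-U74Av2 arrays, of which 29 were distinct, in 3 tables. The values used are the deposited intensity of each probe set on a linear scale; per the submitters' processing notes, pancreas set 2 and the lymph node set were made with RMA, and for set 1 a method was not given in the sources used here. Array medians in a set spanned at most 0.0972 on the log2 scale, so no set was normalized again. The number of arrays limits the precision, and no detection call was used. The log2 of each value was tested with limma 3.58.1 (lmFit and eBayes, R 4.3.3) over 12422 probe sets, without 66 controls, with Benjamini-Hochberg adjustment and a threshold of 0.05. Each set was fitted alone; comparisons across sets used joint quantile normalization, with the array in both pancreatic sets averaged.

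The control probe sets of the node table were stored in another order than in the pancreatic tables (r = 0.254 with them as stored, 0.952 after reordering by name, against 0.984 for other probe sets) and were read by the reordered names. Genes were named from the array annotation: 10833 probe sets had 1 symbol, 396 several and 1193 none. Members, lists and markers were chosen with earlier results of these data known. By rule, the text names all members, list genes that passed (at most 6 a list) and the 3 genes most similar to each receptor's brightest tested probe set; neighbours, markers and list genes that did not pass were named after their values were seen. In pancreas set 2 same-numbered anti-ICOS Treg and Teff arrays deviated together (r = 0.589, 0.283 and 0.237 across probe sets). Same-numbered anti-ICOS and IgG Treg arrays did so too (0.541 and 0.621). These met the rule of a correlation over 0.1 in every pair. The main fits were unpaired, and the numbers served as pairs only in the alternative with the replicate block. Only 1 of the 3 anti-ICOS Treg arrays correlated best with the Teff array of its own number, and replicates 2 and 3 lie in different runs of array numbers. The same-numbered anti-ICOS and IgG Treg arrays were each other's best match in both pairs. The fits were tested on simulated data. Alternatives left out each array in turn and changed the normalization, an offset of 16 before log2, a filter on the lowest 25%, the variance prior, the run or replicate block and the actin ratio as covariate; those on the actin ratio and single nodes for the tissue contrast, and those for list genes, were added after seeing the data.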

Additional observations from a re-analysis of the deposited data

Results flagged for a closer look

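Tnfrsf18 in mesenteric CD25+ replicate 3 stood at 8.73 on the log2 scale, below the other 4 arrays of its group (9.28 to 9.47), with a gap of 0.75 of the group's range. It was the 1 array that stood apart in 14 checks of groups with 4 or more arrays, and chance marks about 1 in 20 such groups. The mesenteric Tnfrsf18 difference was called with and without it.

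The Tnfrsf1b difference between Treg and Teff or CD25+ and CD25- cells was larger in the IgG-treated pancreas than in the nodes, by 1.06 on the log2 scale (limma adjusted p = 0.00255). It was the 1 difference between contrasts that passed among 18 tested over the receptor probe sets.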

How the results depend on the processing

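The 11 receptor differences that passed kept their sign in all 212 alternatives and their call in 197; the 15 lost calls are those of Tnfrsf9 in mesenteric and Tnfrsf1b in peripheral nodes. Of 1084 alternatives for the 55 differences that did not pass, 72 changed sign and 8 passed; the cause was not tested. Between anti-ICOS Treg and Teff cells 0 receptor probe sets passed, from 0 to 3 without 1 array, and 3 with the run as a block. The replicate block was run in the anti-ICOS set and in the nodes, and in neither did every array correlate best with its own number. It called 0 receptor probe sets between anti-ICOS Treg and Teff cells. In mesenteric nodes it called 832 probe sets in place of 1514, and peripheral Tnfrsf9 passed with it (0.39, limma adjusted p = 0.026). It changed no other receptor call.

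Signs of differences that had not passed turned as follows, on the log2 scale. Between anti-ICOS Treg and Teff cells, the actin covariate gave -0.142 for Tnfrsf9 97683_at and 0.216 for Fas. Between anti-ICOS and IgG Treg cells, the run block gave -0.867 for Tnfrsf9 103509_at and -0.166 for Fas, and the actin covariate -0.169 and -0.099. Between anti-ICOS and IgG Teff cells, no joint normalization gave -0.079 for Tnfrsf1b, -0.119 and -0.225 for the Tnfrsf9 probe sets and -0.088 for Fas, the run block -0.160 for Tnfrsf18 and -0.243 for Tnfrsf1b, and the actin covariate -0.076 for Tnfrsf9 103509_at. In the treatment difference of contrasts, Tnfrsf9 103509_at was -0.275 with the run block and -0.089 with the actin covariate, and 97683_at was -0.081 without the shared array. Quantile normalization gave -0.002 for mesenteric Tnfrsf9 97683_at, 0.018 for Fas between sites in CD25+ cells and 0.010 for 97683_at in CD25- cells. The replicate block gave 0.075 for Tnfrsf1b between sites in CD25+ cells and -0.041 for Tnfrsf4 in the site difference of contrasts. Pancreas minus node, Tnfrsf18 was 0.024 without joint normalization and 0.132 against peripheral nodes alone, and Tnfrsf9 103509_at -0.035 against mesenteric nodes alone.

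Leaving out 1 array turned the sign within these ranges. Anti-ICOS minus IgG in Treg cells: Fas -0.359 to 0.741, Tnfrsf18 -0.778 to 0.093, Tnfrsf1b -0.903 to 0.338, Tnfrsf9 -0.484 to 0.859 and -0.262 to 0.327. In Teff cells: Tnfrsf18 -0.076 to 0.156, Tnfrsf1b -0.045 to 0.054, Tnfrsf9 103509_at -0.073 to 0.211. Treatment difference of contrasts: Fas -0.474 to 0.04, Tnfrsf9 -0.317 to 0.273 and -0.072 to 0.091. Between sites in CD25+ cells: Fas -0.081 to 0.07, Tnfrsf18 -0.047 to 0.337, Tnfrsf1b -0.23 to 0.03, Tnfrsf4 -0.402 to 0.339 and 97683_at -0.183 to 0.035. For 97683_at the range was -0.075 to 0.109 between sites in CD25- cells, -0.183 to 0.042 in the site difference of contrasts, -0.002 to 0.097 in mesenteric nodes, -0.107 to 0.089 in the IgG-treated pancreas, -0.016 to 0.174 with anti-ICOS and -0.147 to 0.015 for pancreas minus node. Tnfrsf4 ranged from -0.128 to 0.613 in the site difference of contrasts, and pancreas minus node ranged from -0.181 to 0.017 for Tnfrsf18 and -0.101 to 0.417 for Tnfrsf9 103509_at.

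Counts over all probe sets moved more. The IgG-treated pancreas had 831, against 450 without Teff replicate 5, 471 without Treg replicate 2 and 86 with the actin covariate. Anti-ICOS Treg against Teff had 0, against 12 without Treg replicate 3 and 15 with the run block; against IgG, Treg cells had 0, against 35 without IgG replicate 2, and Teff cells 0, against 4390 without joint normalization. Mesenteric nodes had 1514, against 798 and 743 without CD25- replicates 1 and 2. Peripheral nodes had 955, against 546, 597 and 531 without CD25- replicate 2, CD25- replicate 3 and CD25+ replicate 2, and 1462 without CD25+ replicate 1. Mesenteric minus peripheral CD25+ cells had 9, against 5, 2 and 21 without peripheral CD25+ replicates 1, 2 and 3 and 3 with 16 added before log2. CD25- cells had 56, against 36 without peripheral CD25- replicate 2, and the site difference of contrasts had 1, against 2 or 0. Pancreas minus node had 258, against 449 without peripheral CD25+ replicate 1, 160 without Teff replicate 5, 56 with the actin covariate, and 166 and 52 against mesenteric and peripheral nodes alone.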
